A study of Rattus norvegicus with 16 samples.

Results

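Matrix metalloproteinases (MMPs) are zinc-dependent enzymes that cleave the collagens, elastin and proteoglycans of the extracellular matrix. For the rat joint, 10 of their genes were chosen by name and grouped by the cell that is best known to make the enzyme. Mmp12 stood for macrophages, Mmp8 and Mmp9 for neutrophils, and Mmp2, Mmp14, Mmp16, Mmp19, Mmp3, Mmp10 and Mmp13 for stromal cells such as fibroblasts, chondrocytes and osteoblasts. All 10 were found among the 18166 genes that the annotation of the Affymetrix Rat Gene 2.0 ST array pairs with exactly 1 symbol, each with 1 probe set.

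Most MMPs are made as inactive precursors that other proteases, among them plasmin, furin-like convertases and other MMPs, cut into the active form, and the tissue inhibitors of metalloproteinases (TIMPs) bind and block the active enzyme. In the joint, MMPs come from chondrocytes and synovial fibroblasts, from macrophages and neutrophils, and from the osteoclasts and osteoblasts of the bone below the cartilage.

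The signal of the 10 genes is given as log2 of the normalised probe set signal, so a difference of 1 is a doubling, and levels of different genes cannot be set against each other. Expression was measured in knee cartilage from male Wistar rats at 3 times after a single intra-articular injection of 3 mg of monosodium iodoacetate (MIA), which blocks glycolysis and kills chondrocytes. The groups were untreated intact rats, labelled day 0, and rats at 2, 14 and 28 days after MIA, with 4 arrays per group. The methods describe pools of RNA from 2 animals per array, whereas the labels name single animals. No arrays of saline-injected rats were analysed here, and 1 intact group served for all days, so effects of MIA, of the injection itself and of age cannot be told apart.

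The excised tissue held joint cartilage and meniscus, and small pieces of capsule and bone came with it. Cartilage genes were bright in intact joints, with a mean log2 signal of 13.47 for Chad, 11.91 for Col2a1 and 11.46 for Acan. The mean of 7 erythroid markers ran from 6.61 to 9.82 over the 16 arrays, and that of 13 skeletal muscle markers from 6.52 to 12.02, with none of the 13 called against intact on any day by limma or the methods' t-test (1 higher at day 14 at an unadjusted p below 0.05). In such bulk tissue fewer cells of a type and less RNA per cell cannot be told apart. Array medians lay between 6.57 and 6.69, and arrays correlated with each other at 0.959 to 0.992.

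Of the 10 genes, 5 lie close together on rat chromosome 8, in the order Mmp13, Mmp12, Mmp3, Mmp10 and Mmp8, with further family members among them. The reference set of rat promoters (RefSeq, build GRCr8, 250 bases before to 50 bases after each gene's start) held these 5 of the 10. The last 100 bases before the gene start are shown because 4 of the 5 carry the letters TGAGTCA, the site bound by AP-1 factors such as Fos and Jun, in the same short stretch. Capitals mark TGAGTCA and the TATA box letters TATAAA, on either strand, so that TGACTCA and TTTATA are their reverse complements.
Mmp13, GRCr8 chr8:12782729-12782828, + strand: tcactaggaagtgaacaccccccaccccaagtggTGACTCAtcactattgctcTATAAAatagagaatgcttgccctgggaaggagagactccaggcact
Mmp12, GRCr8 chr8:12866552-12866651, + strand: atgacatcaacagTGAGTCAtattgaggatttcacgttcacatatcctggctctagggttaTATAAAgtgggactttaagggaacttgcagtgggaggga
Mmp3, GRCr8 chr8:12925181-12925280, + strand: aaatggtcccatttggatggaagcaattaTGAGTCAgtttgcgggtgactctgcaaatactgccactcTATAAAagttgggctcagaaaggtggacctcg
Mmp10, GRCr8 chr8:12974607-12974706, + strand: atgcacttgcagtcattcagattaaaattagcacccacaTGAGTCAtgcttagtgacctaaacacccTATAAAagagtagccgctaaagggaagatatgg
Mmp8, GRCr8 chr8:13008790-13008889, + strand: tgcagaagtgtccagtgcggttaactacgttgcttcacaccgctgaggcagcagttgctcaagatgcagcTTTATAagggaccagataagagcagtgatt

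In Mmp12 the AP-1 letters began 87 bases before the gene start, in Mmp3 71, in Mmp13 66 and in Mmp10 61 bases before it. Mmp8 held no TGAGTCA in its window. The same search found TGAGTCA, on either strand, in 4.63% of the 33469 promoters of the reference set. TATAAA was found in all 5 windows and in 14.2% of all promoters, and the ETS factor letters AGGAAG in Mmp13, Mmp3 and Mmp8 and in 34.5% of all promoters. No match overlapped a match of another motif, although in Mmp10 2 TATAAA matches on opposite strands overlapped further upstream. A match in letters is not a measured binding site. Of the 4 genes that share it, Mmp12, Mmp3 and Mmp13 rose after MIA. Mmp10 passed the test at no time, but its mean signal was 4.90 against a median of 6.62 over all values. At a signal this low a change may not be measurable, so a difference between Mmp10 and the others cannot be read from the test.

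At day 2 only Mmp19 and Mmp3 rose and Mmp16 fell, while 7 genes did not pass the test. By day 14 the picture had widened to 7 genes that rose, and at day 28 to 8 that rose and 1, Mmp8, that fell. Mmp12 showed the largest rise of the 10 genes, 12.1-fold at day 28, followed by Mmp3 with 4.88-fold at day 14. From day 14 to day 28 no gene passed the test (counts by other criteria are given with the comparisons between days). Each gene's level was compared between groups with limma, a linear model with a variance estimate shared across the array, and a gene was called when its p, after Benjamini-Hochberg adjustment across the 36685 probe sets, was below 0.05. The study's methods name a t-test without its form. It was run here with unequal variances and the same adjustment, and is called the methods' t-test. The study's own list rested on other cutoffs, among them one on the unadjusted p and a least fold change. With those 2 cutoffs and unequal variances, Mmp12 and Mmp14 passed at days 14 and 28 and Mmp19 at day 28. No other of the 10 genes passed, including Mmp2 (1.79-fold at day 14 and 1.86-fold at day 28).

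At day 2 a rise was called for 2 of 10 genes and for 14.7% of all probe sets, and a fall for 1 of 10 and 11.2%. All 4 arrays of day 2 lay beyond all 4 intact arrays for 2 of the 10 genes, against 27.0% of all probe sets. At day 14, 7 of 10 genes rose, against 9.13% of probe sets, none fell by limma (0 at an unadjusted p below 0.05, and 0 by the methods' t-test after adjustment), against 6.01%, and 7 genes had arrays that did not overlap with intact, against 18.4%. At day 28 a rise was called for 8 of 10 genes and 7.76% of probe sets, a fall for 1 and 6.45%, and non-overlapping arrays were found for 9 genes and 18.2%. The median log2 difference from intact of the 10 genes was 0.20, 1.04 and 1.09 at days 2, 14 and 28, beside -0.05, -0.03 and 0.01 over all probe sets. A moderated F-test over the 3 days passed for 8 of the 10 genes, all but Mmp8 and Mmp10, and for 31.0% of probe sets. These shares describe genes that were picked by name with earlier results on these arrays known, and Mmp2 and Mmp14 are on the study's own gene list from these arrays, so they are not independent evidence of a direction.

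**Figure D1:**
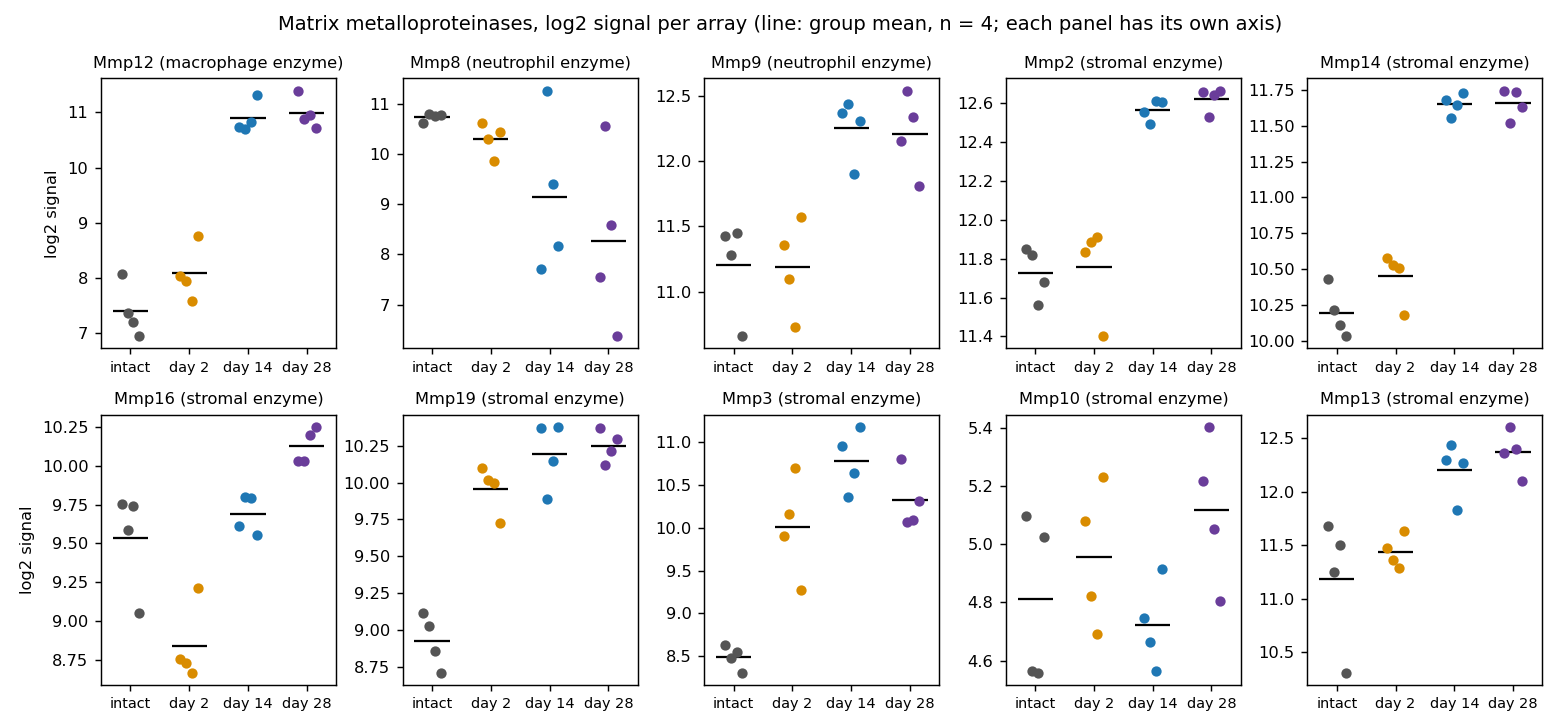
Log2 signal of the 10 genes on each of the 16 arrays (points), with the mean of each group of 4 arrays (line). The arrays of days 14 and 28 lie above all intact and day 2 arrays for Mmp12, Mmp9, Mmp2, Mmp14 and Mmp13. Mmp3 and Mmp19 are already higher at day 2, and the points of Mmp8 spread widely at days 14 and 28.

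Mmp12, the macrophage elastase, cleaves elastin and is known for its role in macrophage migration. Its signal was 8.08, 7.35, 7.19 and 6.95 on the intact arrays, 8.04, 7.94, 7.58 and 8.75 on those of day 2, 10.74, 10.70, 10.82 and 11.31 on those of day 14, and 11.40, 10.88, 10.96 and 10.71 on those of day 28. The late arrays all stood well above the early ones, by more than the whole spread within any group, and intact and day 2 overlapped. Mmp12 rose by a log2 value of 3.50 ± 0.26 (SE) at day 14, an 11.3-fold change (limma, adjusted p = 2.33e-06), and by 3.59 ± 0.26 at day 28 (adjusted p = 6.81e-07). The day 2 difference of 0.69 ± 0.26 missed the threshold (adjusted p = 0.0654). It passed under 3 of 10 other settings and without intact replicate 1 (0.92, adjusted p = 0.013) or MIA day 2 replicate 3 (0.85, adjusted p = 0.0341). Day 14 exceeded day 2 by 2.81 (adjusted p = 4.79e-06), and days 14 and 28 differed by 0.09 with a 95% interval of -0.46 to 0.65.

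Macrophage markers followed another course. Of 18 measured markers, 13 rose at day 2 and the other 5 were not called, whereas at day 14 there were 6 rises and 1 fall, and at day 28 6 rises and 2 falls. Cx3cr1, a chemokine receptor of monocytes and macrophages, was 2.45 above intact at day 2 and 1.20 at day 28, and Gpnmb, a glycoprotein of macrophages and osteoclasts, was 1.59 and 1.15 above. Cd163, a scavenger receptor of resident macrophages, differed by 0.74 at day 2 (adjusted p = 0.0652) and was below intact afterwards, at -1.47 on day 14 and at -2.46 on day 28. The mean of the 18 markers lay between 9.64 and 9.80 in intact joints, between 10.52 and 10.76 on day 2, between 9.72 and 10.12 on day 14, and between 9.62 and 9.93 on day 28. The marker mean was highest at day 2, when Mmp12 missed the threshold, and its range overlapped that of intact joints at days 14 and 28, when Mmp12 was high. The genes whose course over the 16 arrays was nearest to that of Mmp12 were F2r, the thrombin receptor, at a Euclidean distance of 0.71 between standardised values, Cym, chymosin, at 0.95 and Bmal1, a factor of the circadian clock, at 0.96. For scale, the distance between the 10 genes themselves ran from 0.77 for Mmp2 and Mmp14 to 7.11 for Mmp8 and Mmp2.

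**Figure D2:**
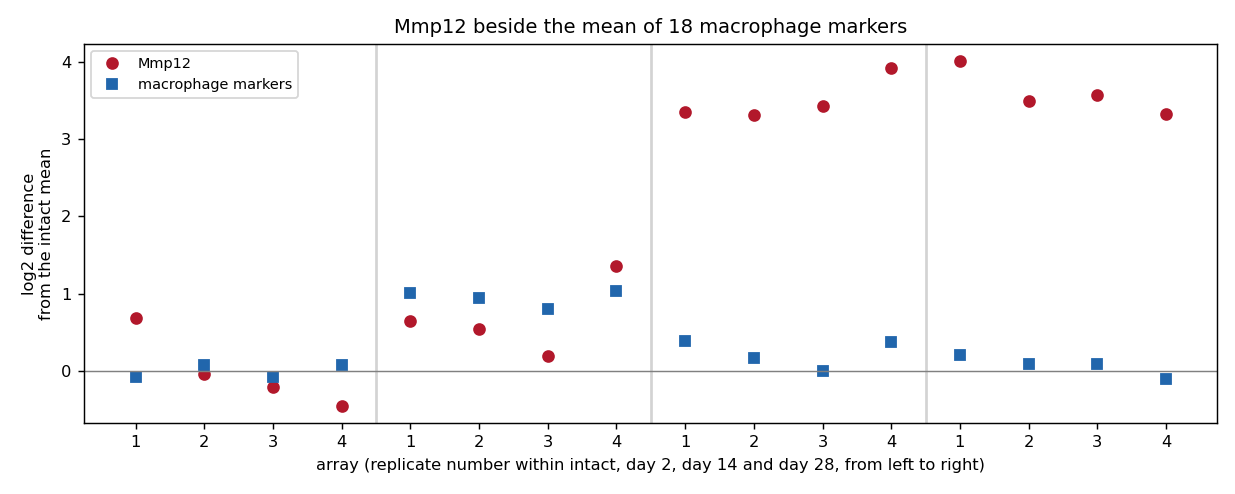
Difference of Mmp12 and of the mean of 18 macrophage markers from their own intact mean (log2, y axis) on each of the 16 arrays (x axis, replicate number within each group). The macrophage mean is highest on the 4 arrays of day 2, whereas Mmp12 is highest on the 8 arrays of days 14 and 28.

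Mmp8, the neutrophil collagenase, is stored in the granules of neutrophils and cleaves fibrillar collagen. It was even across intact joints, at 10.61, 10.81, 10.75 and 10.77, and measured 10.61, 10.30, 9.86 and 10.44 at day 2. At day 14 it was 7.71, 11.26, 9.39 and 8.17, and at day 28 it was 7.54, 10.55, 8.59 and 6.38. The late arrays thus spread far more widely than the early ones, and replicate 2 was above every intact array at day 14 and just below them at day 28. Mmp8 was lower than intact at day 28 by a log2 difference of -2.47 ± 0.76 (SE; limma, adjusted p = 0.0427), with no overlap of the arrays. This call was lost when any 1 of 12 of the 16 arrays was left out, that is any but MIA day 14 replicates 1, 2 and 4 and MIA day 28 replicate 2. Over all 16 the difference ranged from -3.23 to -1.84 and the adjusted p from 0.00502 to 0.133, the first without MIA day 28 replicate 2 and the second without MIA day 28 replicate 4. The differences at day 2 (-0.43, adjusted p = 0.718) and day 14 (-1.60, adjusted p = 0.188) did not pass the test. Without MIA day 14 replicate 2 the latter became -2.31 (adjusted p = 0.0372). Day 28 differed from day 2 by -2.04 (adjusted p = 0.0704), a difference that passed without MIA day 14 replicate 2 (adjusted p = 0.0343) or MIA day 28 replicate 2 (-2.80, adjusted p = 0.00751).

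The 3 genes nearest to Mmp8 over the 16 arrays were all genes of neutrophil precursors or their granules, Ms4a3 at a distance of 0.31, Ngp at 0.51 and Mpo, the myeloperoxidase of the granules, at 0.57, and all 3 are on the list of granule markers. Each had a log2 difference from intact at day 28 close to that of Mmp8, -2.37 for Ms4a3, -2.26 for Ngp and -2.26 for Mpo. Of the 12 neutrophil granule markers, 7 fell at day 28, and none was called at day 2 or day 14 by limma (0 and 6 lower at an unadjusted p below 0.05). Their mean was 7.39, 9.72, 8.42 and 7.54 at day 14 and 7.19, 9.28, 7.81 and 6.58 at day 28, against 9.29 to 9.44 on intact arrays and 8.97 to 9.40 at day 2, so the arrays stood in the same order as for Mmp8 within each late group. The mean of the 6 measured markers of mature neutrophils, of which 1 rose at day 2 and 5 fell at day 28, put the late arrays in the same order too, and ranged from 6.17 to 7.75 at day 28 against 7.86 to 8.03 in intact joints. All 7 erythroid markers were called lower than intact at days 14 and 28, and their mean, from 6.75 to 9.54 and from 6.61 to 8.74 on those days against 9.38 to 9.82 in intact joints, again gave that order. Under the methods' t-test 0 of these falls of granule, mature neutrophil and erythroid markers passed. With the mean of the granule and erythroid markers as a covariate, the day 28 difference of Mmp8 was 0.30 (limma, adjusted p = 0.592). This covariate comes from the same arrays, includes the 3 genes nearest to Mmp8 and orders the late arrays as Mmp8 does. The fit therefore cannot show why Mmp8 was lower, and the cause was not tested.

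Mmp9, a gelatinase that cleaves denatured collagen and basement membrane, is made by neutrophils and also by osteoclasts. On the intact arrays it read 11.43, 11.28, 11.45 and 10.66, and at day 2 11.36, 11.10, 10.73 and 11.57. It then read 12.37, 12.44, 11.90 and 12.31 at day 14 and 12.15, 12.54, 12.34 and 11.81 at day 28. The late arrays all lay above the early ones, and intact and day 2 covered nearly the same range. Mmp9 rose 2.07-fold at day 14 (log2 difference 1.05 ± 0.21, adjusted p = 0.00378) and 2.01-fold at day 28 (1.01 ± 0.21, adjusted p = 0.00501), while the day 2 difference was -0.01 with a 95% interval of -0.47 to 0.44. Under the methods' t-test both late calls were lost (adjusted p = 0.0717 and 0.0753).

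Mmp9 and Mmp8 were called in opposite directions at day 28, and at day 14 the 3 arrays with the lowest Mmp8 had Mmp9 values from 11.90 to 12.37, above every intact array. The nearest genes to Mmp9 were Ctsk at a distance of 0.91, Mt3 at 0.92 and Atp6v0d2 at 1.14. Ctsk encodes cathepsin K, the collagen-cutting protease of osteoclasts, and Atp6v0d2 a subunit of the osteoclast proton pump. Ctsk rose by 1.02 at day 14 (adjusted p = 0.000344) and by 0.92 at day 28 (adjusted p = 0.000681), and Atp6v0d2 by 1.82 and 1.87. Of the 6 measured osteoclast markers 2 rose at day 2, when Mmp9 was not called, and 3 were higher and 1, Car2, lower at each late day. Tnfrsf11a, the receptor that drives osteoclast formation, was highest above intact at day 2 (1.32, adjusted p = 7.2e-07), followed by 0.58 and 0.40 on the late days. Oscar, an osteoclast receptor, rose by 0.91 at day 2 (adjusted p = 0.00425) and differed by 0.54 and 0.50 later (adjusted p = 0.101 and 0.141). Car2, a carbonic anhydrase that red cells make as well, differed by -1.21 and -1.86. Their mean ran from 8.21 to 8.64 in intact joints, from 8.63 to 9.19 at day 2, from 8.64 to 9.20 at day 14 and from 8.54 to 9.21 at day 28. Mmp9 and Mmp8, the neutrophil enzymes by name, lay 6.50 apart by the distance measure. With the granule and erythroid mean as a covariate its late differences were 1.26 and 1.29 (adjusted p = 0.00898 and 0.0206).

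**Figure D3:**
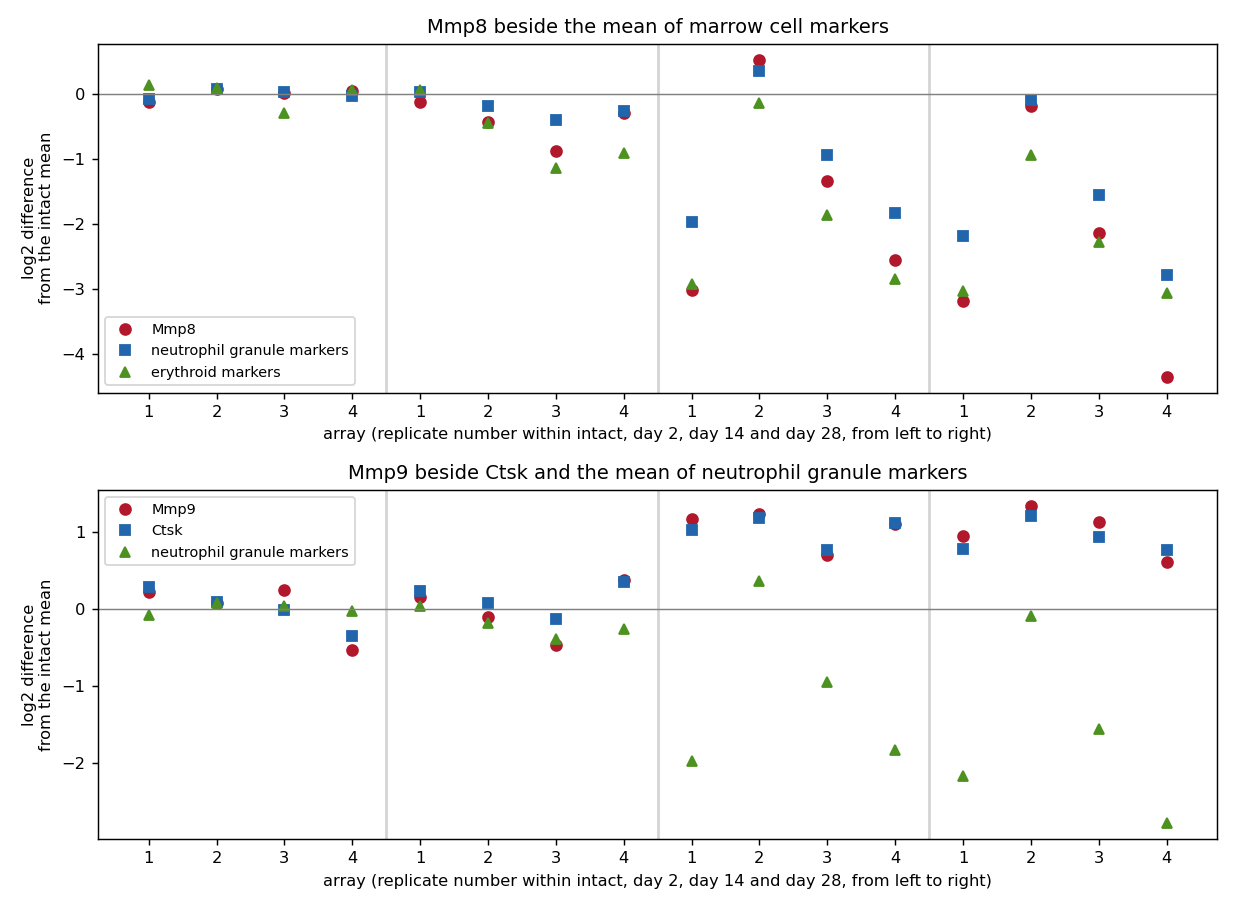
Difference from the intact mean (log2, y axis) on each of the 16 arrays (x axis, replicate number within each group) for Mmp8 with the means of 12 neutrophil granule and 7 erythroid markers (top), and for Mmp9 with Ctsk and the granule mean (bottom). Mmp8 goes up and down with the marker means at days 14 and 28, with replicate 2 the highest array on each of these days, whereas Mmp9 and Ctsk lie above 0 on all 8 late arrays.

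Among the stromal enzymes, Mmp14 and Mmp2 moved most alike. Mmp14 is anchored in the cell membrane, cleaves fibrillar collagen and activates the secreted gelatinase Mmp2 in a complex with Timp2. Mmp14 measured 10.43, 10.21, 10.11 and 10.03 in intact joints, 10.58, 10.53, 10.50 and 10.18 on day 2, then 11.68, 11.55, 11.65 and 11.73 at day 14, and 11.75, 11.52, 11.74 and 11.63 at day 28. The late arrays formed a tight group well above the highest early array. It rose 2.75-fold at day 14 (log2 difference 1.46 ± 0.10, adjusted p = 1.47e-06) and 2.76-fold at day 28 (1.47 ± 0.10, adjusted p = 5.69e-07). The day 2 difference of 0.25 ± 0.10 missed the threshold (adjusted p = 0.0852), but passed when each array was centred on its median (0.34, adjusted p = 0.0248), with dim probe sets removed (adjusted p = 0.0447), and without intact replicate 1 (0.33, adjusted p = 0.0277) or MIA day 2 replicate 4 (0.34, adjusted p = 0.0188). The nearest gene to Mmp14 was Cthrc1, a secreted protein of matrix-forming fibroblasts, at a distance of 0.68, followed by Mmp2 at 0.77 and Ptgfrn at 0.91.

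Mmp2 was at 11.85, 11.82, 11.56 and 11.68 on the intact arrays and at 11.84, 11.89, 11.91 and 11.40 at day 2. At day 14 it was at 12.55, 12.49, 12.61 and 12.61, and at day 28 at 12.66, 12.53, 12.64 and 12.66. The late arrays all lay above the early ones, and the day 2 arrays were close to the upper intact arrays except replicate 4, which was below every intact array. Mmp2 rose 1.79-fold at day 14 (log2 difference 0.84 ± 0.10, adjusted p = 0.000116) and 1.86-fold at day 28 (0.89 ± 0.10, adjusted p = 5.09e-05). Its day 2 difference was 0.03 with a 95% interval of -0.19 to 0.26. Both late days also exceeded day 2, by 0.81 (adjusted p = 7.79e-05) and 0.86 (adjusted p = 2.45e-05). Beside Mmp14, the nearest genes to Mmp2 were Fbxo10 at a distance of 0.64 and Clec2dl1 at 0.81.

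Mmp16 is a membrane-anchored relative of Mmp14. Its values were 9.76, 9.58, 9.74 and 9.05 on the intact arrays and 8.76, 8.73, 8.67 and 9.21 at day 2. They were 9.62, 9.80, 9.80 and 9.55 at day 14 and 10.03, 10.03, 10.20 and 10.25 at day 28. Mmp16 was the only gene of the 10 that was called in both directions, lower at day 2 and higher at day 28. It fell by 0.69 at day 2 (SE 0.15, adjusted p = 0.00303), although intact replicate 4 and MIA day 2 replicate 4 overlapped, and it rose by 0.59 ± 0.15 at day 28 (adjusted p = 0.0153). At day 14 it differed from intact by 0.16 (adjusted p = 0.541). The day 28 rise was lost with only the 2 groups in the fit (adjusted p = 0.0509), under the methods' t-test (0.177) and with the granule and erythroid covariate (0.155), and the day 2 fall under the methods' t-test (0.0822). The nearest genes to Mmp16 were Kdm5b at a distance of 0.95, Tom1 at 1.19 and Gdf11 at 1.27.

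Mmp19 and Mmp3 rose early. Mmp19, a secreted enzyme that cleaves basement membrane proteins, read 9.12, 9.03, 8.86 and 8.71 in intact joints and 10.10, 10.02, 10.00 and 9.73 at day 2, with no overlap. It stayed there, at 10.37, 9.89, 10.15 and 10.37 at day 14 and 10.37, 10.12, 10.22 and 10.29 at day 28. The rise was 2.04-fold at day 2 (log2 difference 1.03 ± 0.12, adjusted p = 2.08e-05), 2.41-fold at day 14 (1.27 ± 0.12, adjusted p = 1.71e-05) and 2.50-fold at day 28 (1.32 ± 0.12, adjusted p = 6.84e-06). The 3 days after MIA did not differ from each other by the test, with day 28 above day 2 by 0.29 (adjusted p = 0.11) and a 95% interval of 0.03 to 0.55. The nearest genes to Mmp19 were Tgfbi at a distance of 0.81, Sod2 at 0.93 and Timp1, an inhibitor of the MMPs, at 0.94.

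Mmp3, stromelysin, degrades proteoglycans and activates the precursors of collagenases. It measured 8.64, 8.48, 8.55 and 8.31 on the intact arrays, 9.91, 10.16, 10.70 and 9.27 on day 2, then 10.96, 10.36, 10.64 and 11.17 at day 14, and 10.80, 10.06, 10.09 and 10.31 at day 28. Every array after MIA was above every intact array, and the day 2 arrays spread most. Mmp3 rose 2.86-fold at day 2 (log2 difference 1.52 ± 0.25, adjusted p = 0.000391), 4.88-fold at day 14 (2.29 ± 0.25, adjusted p = 4.9e-05) and 3.54-fold at day 28 (1.82 ± 0.25, adjusted p = 0.000217). The methods' t-test lost the day 2 rise (adjusted p = 0.0655). Day 14 exceeded day 2 by 0.77 (adjusted p = 0.056), a difference that passed under 5 of 10 other settings and without MIA day 2 replicate 3 (1.00, adjusted p = 0.0103), MIA day 14 replicate 2 (0.91, adjusted p = 0.0331) or MIA day 28 replicate 1 (adjusted p = 0.0478). The nearest genes to Mmp3 were Slc39a14, a zinc transporter, at a distance of 0.98, Has2, the hyaluronan synthase of synovial cells, at 1.10 and Cdc23 at 1.12.

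Mmp10, the other stromelysin, was dim throughout, with a mean of 4.90 against a median of 6.62 over all values. It ranged from 4.56 to 5.10 in intact joints, from 4.69 to 5.23 at day 2, from 4.56 to 4.92 at day 14 and from 4.81 to 5.40 at day 28, and all groups overlapped. Its differences from intact were 0.14, -0.09 and 0.31 at days 2, 14 and 28 (adjusted p = 0.551, 0.768 and 0.259), and the 95% interval at day 28 ran from -0.04 to 0.65. At a signal this low a change in the transcript may not be measurable, and no gene had a course close to it (the nearest, Tex55, was at a distance of 2.32).

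Mmp13 is the collagenase of cartilage and bone, made by hypertrophic chondrocytes and osteoblasts, and cleaves type II collagen. It read 11.68, 11.25, 11.50 and 10.31 on the intact arrays and 11.47, 11.36, 11.29 and 11.64 at day 2. It read 12.30, 12.43, 11.83 and 12.27 at day 14 and 12.36, 12.60, 12.40 and 12.10 at day 28. Intact replicate 4 stood below the other intact arrays here, as it did for Mmp12, Mmp9, Mmp14, Mmp16, Mmp19 and Mmp3. Its means of chondrocyte markers (9.08), osteoclast markers (8.21) and hypertrophic chondrocyte and osteoblast markers (8.72) were also the lowest of the intact arrays. Its means of macrophage, neutrophil, erythroid, fibroblast and muscle markers were not. Mmp13 rose 2.03-fold at day 14 (log2 difference 1.02 ± 0.23, adjusted p = 0.00783) and 2.27-fold at day 28 (1.18 ± 0.23, adjusted p = 0.00296), with 0.26 at day 2 (adjusted p = 0.454). Without intact replicate 4 these late differences were 0.73 (adjusted p = 0.00774) and 0.89 (adjusted p = 0.00214). The day 14 call was lost with only the 2 groups in the fit (adjusted p = 0.0565), and both were lost under the methods' t-test (0.194 and 0.156). Day 14 exceeded day 2 by 0.76 (adjusted p = 0.0372), a call that was lost without MIA day 2 replicate 1, 2 or 3 or MIA day 14 replicate 1, 2 or 4, at adjusted p values from 0.0677 to 0.0939.

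The nearest genes to Mmp13 were Mt3 at a distance of 1.20, Atp6v0d2 at 1.23 and Siglec15, a receptor of osteoclasts, at 1.27, so that Mt3 and Atp6v0d2 were among the 3 nearest to both Mmp13 and Mmp9. Mmp9 and Mmp13 were themselves the third closest pair of the 10 genes, at 1.31. Of the 10 markers of hypertrophic chondrocytes and osteoblasts, 1 fell at day 2 and 2 fell at day 14. Bglap fell on both days (-0.86 and -0.92, adjusted p = 0.0371 and 0.042) and differed by -0.64 at day 28 (adjusted p = 0.173). Ihh fell at day 14 (-0.62, adjusted p = 0.0143). At day 28 Panx3 (1.29, adjusted p = 0.0151) and Ibsp (0.88, adjusted p = 0.0454) rose. Col10a1, the collagen that defines hypertrophic cartilage, differed by -1.75 at day 14 (adjusted p = 0.0917) and by 0.01 at day 28 (adjusted p = 0.994). With an SE of 0.66, a change of Col10a1 at day 28 in either direction could have been missed.

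**Figure D4:**
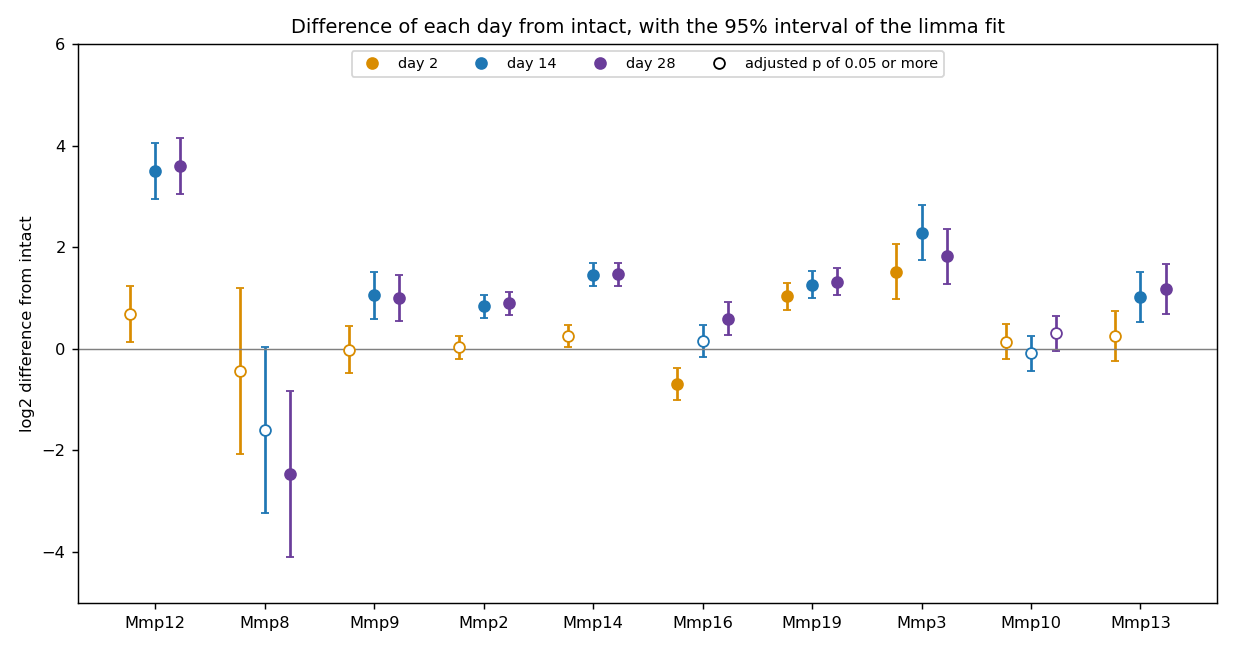
Log2 difference of each day from intact for the 10 genes (y axis), with the 95% interval of the limma fit as bars and open circles where the adjusted p was 0.05 or more. Filled circles above 0 mark Mmp19 and Mmp3 at every day, and Mmp12, Mmp9, Mmp2, Mmp14 and Mmp13 at days 14 and 28. Mmp16 has a filled circle below 0 at day 2 and above it at day 28, and Mmp8 has 1 below 0 at day 28.

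The days after MIA were also compared with each other. Day 14 exceeded day 2 for 6 of the 10 genes (6.71% of all probe sets), Mmp12, Mmp9, Mmp2, Mmp14, Mmp16 and Mmp13, and no gene was lower by limma (7.83% of probe sets), at an unadjusted p below 0.05 or by the methods' t-test. Day 28 exceeded day 2 for 6 genes (10.4% of probe sets), and none was lower by limma (12.2% of probe sets), with 1, Mmp8, lower at an unadjusted p below 0.05 and 0 by the methods' t-test. From day 14 to day 28 no gene was called higher by limma (0.188% of probe sets) or lower (0.273%), with 2 genes higher and 0 lower at an unadjusted p below 0.05, Mmp16 by 0.44 and Mmp10 by 0.40, and 0 by the methods' t-test. Ordered by mean level, days 28 and 14 took the top places for Mmp12, Mmp9, Mmp2, Mmp14, Mmp16, Mmp19, Mmp3 and Mmp13, and the neighbours day 14 and day 28 did not pass the test for any of these. For Mmp12, Mmp2, Mmp14 and Mmp13 the order went on with day 2 and intact, which did not pass the test either. Mmp8 alone ran from intact down to day 28, with no neighbouring groups that passed.

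Of 12 further MMP genes 10 were measured, of which 1 rose and 4 fell at day 2, whereas rises and falls were even at 2 each at day 14 and stood at 2 and 1 at day 28. Their median difference was -0.18, -0.14 and 0.05 on these days. Mmp11, a stromal enzyme of remodelling tissue, rose by 0.57 at day 14 (adjusted p = 0.00515) and by 0.84 at day 28 (adjusted p = 0.000294), and Mmp23 by 0.49 at day 2 and 0.74 at day 14. Mmp15, another membrane-anchored member, fell by 0.77 at day 2 (adjusted p = 5.38e-05), as Mmp16 did, and differed by -0.05 at day 28. Mmp27 fell by 0.81 at day 2 and by 0.60 at day 28. Its intact mean of 5.81, like those of Mmp1, Mmp7, Mmp20 and Mmp21, was below the median of 6.62 over all values. Such dim signals limit what these counts and medians can show.

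The inhibitors split. Of 7 measured, 2 rose at day 2 while 4 fell, and at day 14 the split was 2 against 3 and at day 28 it was 3 against 3. Timp1, a secreted inhibitor of most MMPs, rose by 1.02, 1.23 and 1.26 at days 2, 14 and 28 (adjusted p = 1.1e-05, 1.06e-05 and 5.12e-06), and Tfpi2, a serine protease inhibitor of the matrix, by 1.15, 1.48 and 1.23. Timp3, which is held in the matrix, fell by 1.52 at day 2 (adjusted p = 2.25e-07), by 0.57 at day 14 and by 0.40 at day 28. Timp4 fell by 1.30, 1.03 and 1.35 on the same days, and Reck, a membrane-anchored inhibitor, by 1.19, 0.69 and 0.40. Timp2, the partner of Mmp14 and Mmp2, fell by 0.46 at day 2, differed by 0.09 at day 14 (adjusted p = 0.441) and rose by 0.24 at day 28.

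Of 13 measured genes of MMP activation, docking and clearance, 4 rose and 3 fell at day 2. At day 14 there were 5 rises and 3 falls, and at day 28 there were 4 and 1. Plau, urokinase, which turns plasminogen into plasmin, rose by 1.31 at day 2 and still by 1.16 at day 14, and differed by 0.51 at day 28 (adjusted p = 0.104). Plat, the other plasminogen activator, differed by 0.00 at day 2 (adjusted p = 0.98) and rose by 0.83 at day 14 and 1.01 at day 28. Pcsk6, a furin-like convertase made by chondrocytes, fell by 1.66, 1.32 and 1.03. The other convertases did not fall. Furin rose by 0.31 at day 2 (adjusted p = 0.0079) and was not called later, and Pcsk5 and Pcsk7 were called on no day. Ddr2, a collagen receptor, fell by 0.93 at day 2 and 0.26 at day 14.

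**Figure D5:**
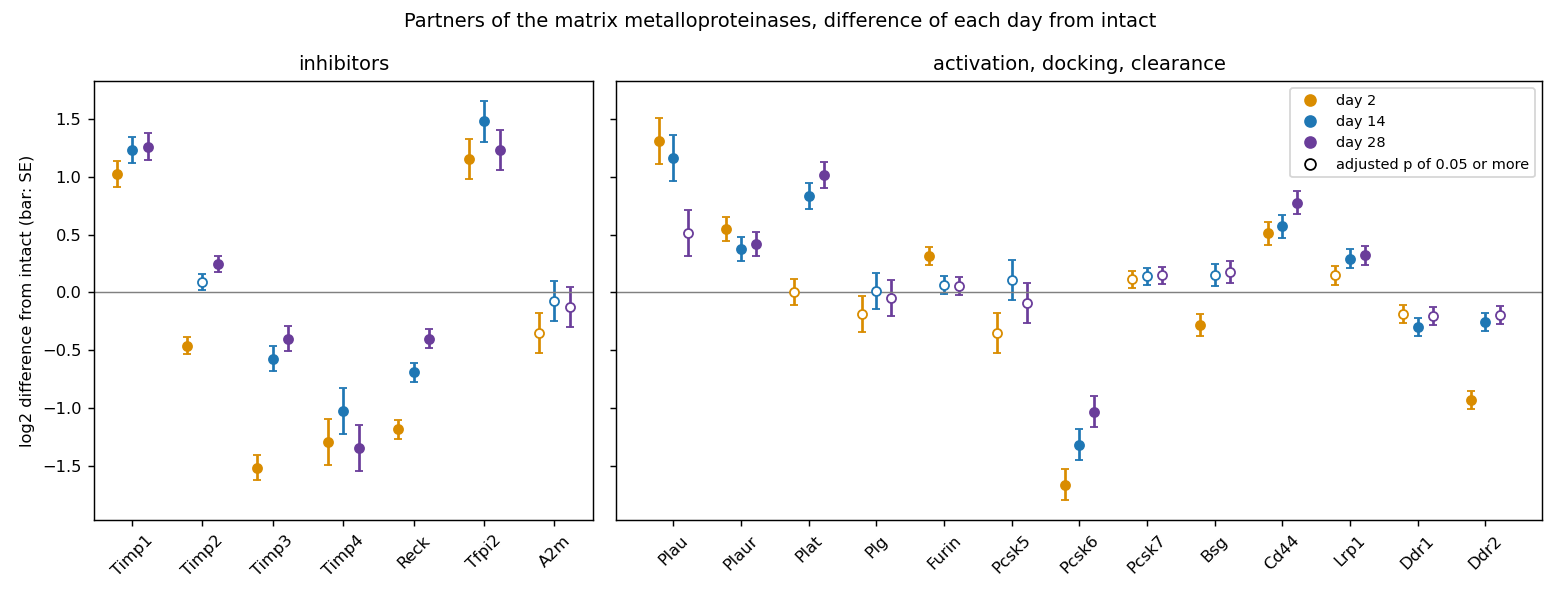
Log2 difference of each day from intact (y axis, bars are the SE of the limma fit) for 7 inhibitors (left) and 13 genes of activation, docking and clearance (right), with open circles where the adjusted p was 0.05 or more. Timp1 and Tfpi2 are above 0 at all days, and Timp3, Timp4, Reck and Pcsk6 are below 0 at all days.

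Among 10 cytokines that are known to induce or restrain MMP genes, 5 rose at day 2, 5 at day 14 and 4 at day 28, and none was lower by limma or by the methods' t-test on any of these days (1 at day 14 at an unadjusted p below 0.05). Il6 was 2.81, 3.06 and 1.72 above intact (adjusted p = 5.99e-05, 0.000103 and 0.00648). Il1b, a strong inducer of Mmp3 and Mmp13 in chondrocytes, rose by 1.34 at day 2 (adjusted p = 3.85e-07) and 0.52 at day 14, and differed by 0.04 at day 28. Il11 rose by 0.71, 0.61 and 1.17, and Il1rn, the natural antagonist of the interleukin receptor that Il1b uses, by 1.40, 1.73 and 1.15. Of 17 measured transcription factors of the AP-1, ETS and related families, 5 rose and 5 fell at day 2. Rises then outnumbered falls, by 4 to 1 at day 14 and by 7 to 1 at day 28. The AP-1 genes Fos (0.57, 1.00 and 1.45), Fosl1 (1.11, 0.63 and 1.24) and Junb (0.80, 0.97 and 0.81) rose at every day. Other AP-1 genes did not. Jun was called on no day (-0.02, 0.03 and 0.22), and Jund only at day 28 (0.47). Fosb fell by 0.61 at day 2, was not called at day 14 and rose by 0.96 at day 28. Atf3, a stress-induced relative, fell by 0.61 at day 2 and rose by 1.00 at day 28.

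Of 14 measured matrix substrates, 2 rose and 8 fell at day 2, while at days 14 and 28 5 rose and 1 fell. Col2a1, the main collagen of cartilage, fell, with a difference of -2.87 at day 2 and then -3.12 at day 14, and was at -1.21 at day 28 (adjusted p = 0.286). Acan, the aggrecan core protein, fell by 1.71 at day 2 and differed by 0.07 at day 14 (adjusted p = 0.93). Vcan, a proteoglycan of fibrous tissue, rose by 0.61, 1.10 and 1.02. Eln, which encodes elastin, a substrate of Mmp12, fell by 1.03 at day 2 and by 0.70 at day 28. At day 14, when Mmp12 was already high, Eln differed by -0.04 (adjusted p = 0.869). Of 16 measured chondrocyte markers 11, 9 and 5 were lower at days 2, 14 and 28, and their mean lay between 9.08 and 9.66 in intact joints, between 6.86 and 8.51 on day 2, between 7.36 and 8.17 on day 14, and between 8.20 and 9.11 on day 28.

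Fibroblast markers were mixed. Of 13 measured, 2 rose and 6 fell at day 2, but 6 rose at day 14 and 7 at day 28, with 1 fall on each late day. Their mean lay between 10.83 and 10.90 in intact joints and between 10.50 and 10.86 on day 2. It then lay between 11.35 and 11.46 on day 14 and between 11.39 and 11.51 on day 28. All late arrays thus lay above all early ones, as they did for Mmp12, Mmp9, Mmp2, Mmp14 and Mmp13. Lrrc15, a marker of matrix-forming fibroblasts, rose by 1.80, 3.02 and 3.02 (adjusted p = 1.74e-05, 1.44e-06 and 5.26e-07), and Postn, periostin, by 1.13 at day 14 and 0.90 at day 28. Cd55, a complement regulator of the synovial lining, was called lower on all 3 days, at -1.70, -0.61 and -0.48, and Fap, a membrane protease of activated fibroblasts, fell at day 2 (-1.20) and differed by -0.12 and -0.05 on the late days (adjusted p = 0.677 and 0.895). The part that the number of fibroblasts had in the levels of the MMP genes was not tested.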

How the data were processed

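Gene expression in rat knee cartilage was read from 16 arrays of the type Affymetrix Rat Gene 2.0 ST, 4 for each of intact, day 2, day 14 and day 28, and groups and replicate numbers were taken from the sample titles. At day 2 the sample descriptions number the replicates differently, and the titles' numbers were used throughout. The values deposited by the authors are on the log2 scale, 1 per probe set. The submitters' processing notes name RMA and oligo 1.36.1, whereas the methods name background subtraction followed by quantile normalisation before the log2 step. They were used as deposited, without a filter. Arrays have no sequencing depth, and their number limits the precision.

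The matrix metalloproteinases and all 15 gene lists were chosen with earlier results of these data known. Of 36685 probe sets 18511 had 1 symbol, 575 several and 17599 none. A gene was read from its 1-symbol probe set with the highest mean. The 10 members' gene identifiers all matched RefSeq. A model with 4 group means was fitted in limma 3.58.1 (R 4.3.3), with 6 comparisons, eBayes (2.86 prior degrees of freedom) and Benjamini-Hochberg adjustment over all probe sets, threshold 0.05. The p-values measure the spread between arrays. Named genes were the members, up to 4 per list with the largest difference among those called, and the 3 nearest genes per member by Euclidean distance. Reck, Timp2, Col10a1, Chad, Oscar, Jun, Jund, Fosb, Furin, Pcsk5, Pcsk7, Mmp1, Mmp7, Mmp20 and Mmp21 were added after their values were seen. Promoters came from RefSeq (GRCr8). The code was tested on simulated data. Alternatives changed the scaling, probe set filter, spread, test, covariates, replicate block and left out each array. Plots were made in Python 3.11.15 with matplotlib 3.10.9.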

Additional observations from a re-analysis of the deposited data

Results flagged for a closer look

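On 2 of the 40 combinations of gene and group, an array stood far from the other 3, where chance marks about 1 in 20. Both were MIA day 2 replicate 4, which was the lowest day 2 array for Mmp2 at 11.4 and the highest for Mmp16 at 9.211. Without it, Mmp2 at day 2 differed from intact by 0.15 (adjusted p = 0.212) and Mmp16 by -0.81 (adjusted p = 0.000903), so neither call changed.

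The difference from intact changed between days for 6 of the 10 genes, by limma's test of the days against each other. For Mmp12 it was larger by 2.813 at day 14 and by 2.906 at day 28 than at day 2. For Mmp14 the increase was 1.205 and 1.212, for Mmp9 1.065 and 1.019, and for Mmp2 0.806 and 0.8633. For Mmp16, which was below intact at day 2, it was 0.8485 and 1.284, and for Mmp13 0.7643 and 0.9242. Over these 12 comparisons the adjusted p ranged from 9.63e-07 for Mmp14 to 0.0372 for Mmp13.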

How the results depend on the processing

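The counts of rises at day 14 and from day 2 to day 28 stayed within 1.5 times their value under all 10 settings other than leaving out arrays. The F-test count did so where it was made, which excludes the fit with only the 2 groups and the methods' t-test. At day 2, the 2 rises became 4 when each array was centred on its median and with dim probe sets removed, and 1 under the methods' t-test, which also gave 0 in place of 1 fall at day 2, 5 in place of 8 rises at day 28 and 3 in place of 6 from day 2 to day 14. The single fall at day 28, Mmp8, became 0 with only the 2 groups in the fit, under the methods' t-test and with either covariate, and Mmp8 turned to 0.3022 with the granule and erythroid covariate. From day 2 to day 28, no fall became 1 fall, Mmp8, with dim probe sets removed, with 1-symbol probe sets only and with the replicate block.

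With 1 array left out, the rises ranged from 2 to 4 at day 2, 7 to 7 at day 14, 8 to 8 at day 28, 5 to 7 from day 2 to day 14 and 6 to 6 from day 2 to day 28, the falls at day 14, at day 28 and from day 2 to day 28 from 0 to 1, and the F-test count from 8 to 9. Over genes and comparisons, 932 such refits left the call as it was, 18 lost and 10 gained it, and 0 reversed it. Replicate numbers, which at day 2 differ between titles and descriptions (the titles' were used), did not pair the arrays. Same-numbered arrays of different groups correlated over 0.1 in 7 of 24 pairs (-0.36 to 0.458), and the replicate block changed no other count by more than 1.5 times. Using the mean of a gene's probe sets changes nothing, since each gene has 1. The causes were not tested. Dim signal limits Mmp10.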
